A study of Mus musculus with 6 samples.

Results

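Atf4, Ddit3 (the gene of CHOP) and 8 genes that act with them or are induced through them were followed in 3T3 cells, a fibroblast line from mouse embryos, after transfection with GapmeR Ntep or GapmeR control. All probes of the arrays that carry the gene name Atf4, Atf3, Atf5, Ddit3, Ddit4, Trib3, Chac1, Asns, Ppp1r15a or Sesn2 were taken, which gave 11 of the 55681 probes and 10 of the 35527 gene names on the arrays. Atf4 is covered by 2 probes and each of the other genes by 1. The expression arrays were from Agilent, in 1 color, and the 6 of them came from 3 independent experiments, with 1 GapmeR Ntep and 1 GapmeR control array in each. GapmeRs are antisense oligonucleotides through which RNase H cuts a chosen RNA, here the lncRNA Ntep. Both groups were 3T3 cells in the same medium and received their GapmeR at 50 nM for 48 h, per the labels, while a supplement of the study describes 2 such doses. The profiling rests on 1 cell line and 1 GapmeR against Ntep, and no untransfected cells were profiled.

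In the integrated stress response, kinases sense misfolded protein, amino acid shortage, double-stranded RNA or haem shortage and phosphorylate the translation factor eIF2α. Translation then falls in general, while the mRNAs of ATF4, ATF5 and CHOP are translated better. ATF4 is a bZIP transcription factor that induces genes of amino acid supply, the transcription factors ATF3 and CHOP, and a set of inhibitors that limit the response or mTORC1. Because ATF4 and CHOP are controlled at translation as well as at transcription, array signals give their mRNA only.

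The arrays were similar in quality, with 43.7% to 53.3% of probes well above background and no saturated probe. The probe of Ntep, named A630089N07Rik in the files, had a signal of 472, 91.5 and 226 on the GapmeR Ntep arrays of experiments 1, 2 and 3. On the GapmeR control arrays it had 271, 272 and 361. It was higher with GapmeR Ntep in experiment 1 and lower in the other two experiments (log2 difference −0.48, SE 0.58, limma adjusted p = 0.632), so groups are named below as the arrays are labelled. All 10 fibroblast markers examined were well above background on every array, with a summed signal of 558000 to 740000 under GapmeR Ntep and 812000 to 895000 under GapmeR control. Of 11 macrophage marker genes on the array, 6 were well above background on all arrays, while Emr1, Lyz2, Mrc1, Ptprc and Tyrobp were not above it on each array. The 7 macrophage genes bright enough to be tested had a summed signal of 43100 to 75500 with GapmeR Ntep and 21200 to 27900 with GapmeR control. They outnumber the 6 well above background on all arrays, since a mean of 50 in 1 group sufficed for testing. Whether each of the 7 reached it in both groups was not examined. The median log2 difference of the 7 was 1.11, with 5 positive, 1 called higher (limma adjusted p under 0.05) and 0 lower. For the 10 fibroblast genes it was −0.59, with 1 positive, 0 called higher and 1 lower. Over all tested probes 54.5% were positive, 2.09% called higher and 3.21% lower. The part of either list in the results below was not tested.

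All 11 probes were well above background on all 6 arrays and all were tested. The log2 difference, GapmeR Ntep minus GapmeR control, was positive for all 11, as it was for 54.5% of the tested probes, and ran from 0.04 for Ddit4 to 1.45 for Ppp1r15a and for the dimmer Atf4 probe. The median difference was 0.83, against 0.06 over the 30990 tested probes. By experiment the median of the 11 probes was 0.54, 0.94 and 1.04, against 0.03, 0.05 and 0.03 for all probes. A total of 10 of the 11 probes were higher in each of the 3 experiments, as were 32.4% of all tested probes. For 8 of 11, every GapmeR Ntep array lay above every GapmeR control array, which held for 17% of all tested probes. By limma with an adjusted p under 0.05, however, only the dimmer probe of Atf4 was called higher and no probe was called lower. Among all tested probes 2.09% were called higher and 3.21% lower, or 5.3% in either direction. The same probe was the 1 of the 11 that was at least 2-fold higher at an unadjusted p under 0.01, limits that 3.08% of all tested probes passed in that direction. At an unadjusted p under 0.05, 6 of the probes passed, against 12.5% of all tested probes in that direction.

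**Figure D1:**
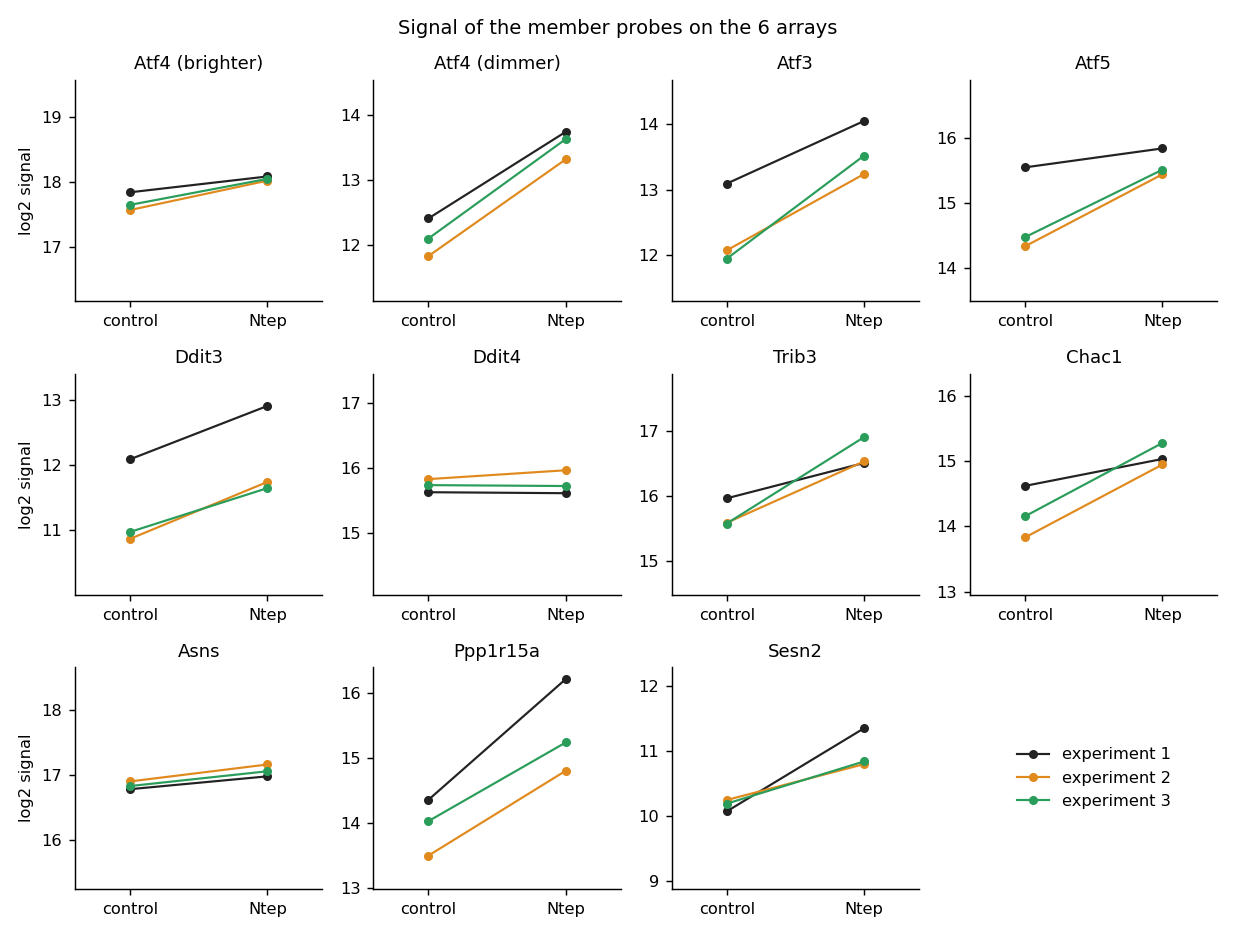
Log2 signal of the 11 probes (vertical axes, all spanning the same log2 range) on the GapmeR control and GapmeR Ntep arrays, with a line joining the arrays of each of the 3 experiments. Lines climb in every experiment for all probes but that of Ddit4. For both Atf4 probes and those of Atf3, Atf5, Ddit3 and Ppp1r15a, both arrays of experiment 1 lie above the other arrays of their label.

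Arrays of the same experiment varied together, and a fit with the experiment as a block took this variation out. With this block 4 of the 11 probes were called higher, those of Atf3, Ddit3, Ppp1r15a and the dimmer one of Atf4, against 6.54% of all tested probes called higher. This count depended on how limma estimated the common variance. It was 1 when all 55681 probes entered that estimate and 9 when the variance was allowed to follow the signal. In either direction these settings called 1034 and 7516 of the 30990 tested probes, against 4292 with the block alone. Signals here are relative to the other probes of the same array, so a rise of a gene and a fall of the other RNA cannot be told apart. They also come from RNA of many cells together. More cells that express a gene and more of its RNA per cell therefore cannot be told apart.

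Atf4 is the transcription factor at the centre of the group, and its probes differed in how far they moved. Both lie on the plus strand of chromosome 15 in mm9, the build of the files, the brighter one at chr15:80087902-80087961 and the dimmer one at chr15:80086639-80086698, which is 1263 bases closer to the start of the gene. The first 30 of the 60 bases of each probe are shown because the result for Atf4 depends on which of them is read.
Atf4 brighter probe: ggtgctttgtgcttgtacatagtcttgtgt
Atf4 dimmer probe: tcttcacgaaatccagcagcagtgttgctg
The full probes have a GC content of 35% and 45%. The brighter probe had a signal of 278510, 266436 and 271314 with GapmeR Ntep and of 235331, 194847 and 205824 with GapmeR control. The groups did not overlap, and the means of 272086 ± 6070 and 212001 ± 20900 (SD, n = 3 each) gave a log2 difference of 0.36 (SE 0.16, 95% interval −0.03 to 0.75, limma adjusted p = 0.224). The dimmer probe had 13644, 10185 and 12636 with GapmeR Ntep and 5426, 3636 and 4384 with GapmeR control. Here the labels were far apart, and no control array came near a GapmeR Ntep array. The means were 12155 ± 1780 and 4482 ± 899, a 2.73-fold rise (log2 1.45, SE 0.22, 95% interval 0.90 to 1.99, limma adjusted p = 0.0312), which was 1.33, 1.49 and 1.53 in the 3 experiments. Scaling to the 75th percentile in place of quantile normalization, which moved the median of all probes to 0.22, gave 0.59 for the brighter probe and left the dimmer one past the threshold (adjusted p = 0.0433). Only 2.66% of the tested probes had a difference at least as high. The call was lost without any one array other than GapmeR Ntep replicate 2, with adjusted p of 0.0572 to 0.139, and without both arrays of experiment 1 (0.0541).

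The gap between the Atf4 probes was measured on each array as the log2 signal of the dimmer minus that of the brighter probe. It was −4.35, −4.71 and −4.42 with GapmeR Ntep and −5.44, −5.74 and −5.55 with GapmeR control. The groups were thus separate, with a difference of 1.08 and an exact permutation p of 0.1, two-sided, which is the smallest p that 3 against 3 arrays allow. After this gap had been seen, 2004 genes with a pair of probes within 10000 bases of each other, both well above background, were examined in the same way. The probe closer to the gene start had the higher difference in 68.2% of them, with a median gap of 0.11, and a gap as large as that of Atf4 in that direction occurred in 5.19%. What sets the Atf4 probes apart was not tested.

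**Figure D2:**
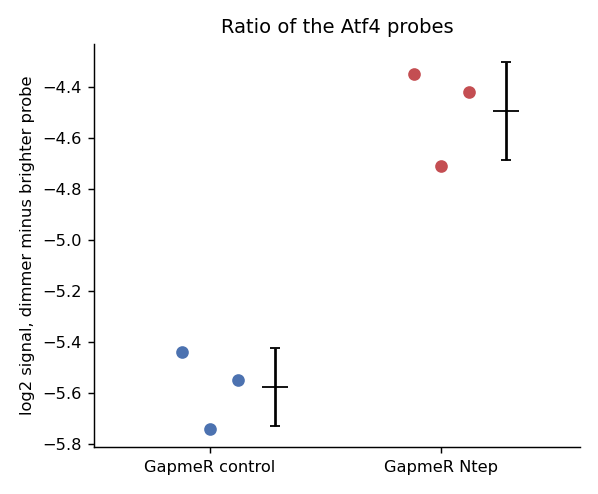
Log2 signal of the dimmer Atf4 probe minus that of the brighter one on each array (points), with the mean and SD of each label (n = 3, black). The 3 GapmeR Ntep arrays lie between −4.71 and −4.35 and the 3 control arrays between −5.74 and −5.44.

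Atf3 encodes a bZIP factor that is induced by ATF4 and by many other stresses, and that represses or activates its targets. Its probe (chr1:192994547-192994606, minus strand, mm9) had a signal of 17006, 9673 and 11774 with GapmeR Ntep and of 8733, 4294 and 3929 with GapmeR control. All GapmeR Ntep arrays were above all control arrays, although control array 1 came close to GapmeR Ntep array 2. The 2.36-fold higher mean (log2 1.24, SE 0.38, 95% interval 0.31 to 2.17) had a limma adjusted p of 0.115, and with the experiment as a block of 0.036 (0.00577 to 0.324 over all 20 alternatives). Within experiments the difference was 0.96, 1.17 and 1.58.

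Ddit3 encodes CHOP, the bZIP factor that drives cell death and secretory genes when stress persists. Its probe, whose 60 bases lie over chr10:126732518-126732821 of mm9 on the plus strand, had a signal of 7675, 3421 and 3202 with GapmeR Ntep. On the control arrays it had 4350, 1867 and 2009. The groups overlapped, since control array 1 was above GapmeR Ntep arrays 2 and 3, and both arrays of experiment 1 were the highest of their label. Inside each experiment, however, GapmeR Ntep was higher by a similar amount, 0.82, 0.87 and 0.67 on the log2 scale. The unpaired fit gave 0.79 (SE 0.48, 95% interval −0.38 to 1.96, limma adjusted p = 0.358), and the block by experiment brought the adjusted p to 0.0428 (0.0143 to 0.657 over all alternatives). The unpaired difference moved when only 1 of the arrays of experiment 1 was left out. It was 0.38 without GapmeR Ntep replicate 1 and 1.18 without GapmeR control replicate 1. Without both it was 0.77, close to the 0.79 with all arrays.

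Atf5, a relative of Atf4 whose mRNA is likewise translated better when eIF2α is phosphorylated, was measured by 1 probe (chr7:52067627-52067686, minus strand, mm9). Its signal was 58489, 44412 and 46648 with GapmeR Ntep and 47813, 20657 and 22764 with GapmeR control. Control array 1 lay above GapmeR Ntep arrays 2 and 3, so the groups overlapped. The difference was 0.81 (SE 0.36, limma adjusted p = 0.226), with 0.29 in experiment 1 and 1.10 and 1.04 in the others.

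Among the genes that feed back on the response, Ppp1r15a encodes GADD34, the subunit that brings protein phosphatase 1 to eIF2α and so restores translation. Its probe (chr7:52778320-52778379, minus strand, mm9) had a signal of 76039, 28672 and 38719 with GapmeR Ntep and of 21031, 11619 and 16767 with GapmeR control. No control array reached the lowest GapmeR Ntep array, and GapmeR Ntep array 1 stood far above the other arrays of its label. The mean was 2.74-fold higher (log2 1.45, SE 0.42, 95% interval 0.43 to 2.48, limma adjusted p = 0.0992), with 1.85, 1.30 and 1.21 in the 3 experiments. With the experiment as a block the adjusted p was 0.0337 (0.00356 to 0.291 over all alternatives). Its paralog Ppp1r15b, the subunit of the same phosphatase that is present without stress, had means of 1050 ± 260 with GapmeR control and 3799 ± 1700 with GapmeR Ntep. The difference was 1.77 on the log2 scale (adjusted p = 0.0591, or 0.0337 with the block). Ppp1r15b was picked out after its values had been seen.

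Trib3 encodes a pseudokinase that binds ATF4 and CHOP and dampens their activity. Its probe (chr2:152163161-152163220, minus strand, mm9) had a signal of 93172, 94778 and 122722 with GapmeR Ntep and of 63983, 49334 and 48922 with GapmeR control. The groups were well apart, with a difference of 0.54 in experiment 1, 0.94 in experiment 2 and 1.33 in experiment 3. The 1.91-fold higher mean (SE 0.21 and 95% interval 0.43 to 1.44 on the log2 scale) had a limma adjusted p of 0.057. It passed with normexp background correction (0.033), with a filter for probes well above background on all arrays (0.0336) and with a variance that follows the signal (0.0203). It did not pass with the block (0.0583), with the methods' t-test (0.095 after adjustment) or when any single array was left out, and the adjusted p ran from 0.00855 to 0.214 over all alternatives.

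Chac1 encodes an enzyme that degrades glutathione and is induced by ATF4. Its probe (chr2:119179990-119180049, plus strand, mm9) had a signal of 33596, 31668 and 39843 with GapmeR Ntep and of 25225, 14588 and 18263 with GapmeR control. All arrays of one label were above all of the other, with control array 1 nearest to the GapmeR Ntep arrays. The difference was 0.89 (SE 0.25, 95% interval 0.28 to 1.49, limma adjusted p = 0.0941), with 0.41 in experiment 1 and 1.12 and 1.13 in the others.

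Asns encodes asparagine synthetase, which makes asparagine and is among the best known targets of ATF4. Its probe (chr6:7625171-7625228, minus strand, mm9) had a signal of 129611, 147063 and 136788 with GapmeR Ntep and of 113046, 122793 and 116912 with GapmeR control. The groups were separate by a small margin and the experiments gave 0.20, 0.26 and 0.23. The difference of 0.23 (SE 0.15, 95% interval −0.15 to 0.60, limma adjusted p = 0.405) was within the error that limma assigned, it was 0.47 with scaling to the 75th percentile, and 38.2% of tested probes were at least as high.

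Sesn2 and Ddit4 both encode inhibitors of mTORC1, sestrin 2 as a leucine sensor and REDD1 through the TSC complex. The Sesn2 probe (chr4:132048858-132048917, minus strand, mm9) had a signal of 2610, 1781 and 1833 with GapmeR Ntep and of 1077, 1216 and 1170 with GapmeR control. The groups were separate, and the control arrays spread little (1154 ± 70.9). The difference of 0.83 (SE 0.21, 95% interval 0.32 to 1.33) had a limma adjusted p of 0.0752, and 0.0462 when only probes well above background on all arrays were tested (0.0284 to 0.225 over all alternatives). The Ddit4 probe (chr10:59412486-59412545, minus strand, mm9) had 49993, 63808 and 53924 with GapmeR Ntep and 50485, 58043 and 54450 with GapmeR control. Here the labels were intermixed and the experiments gave −0.01, 0.14 and −0.01. The difference of 0.04 (SE 0.17) had a 95% interval of −0.39 to 0.46 (limma adjusted p = 0.914), an interval that leaves room for a change of either sign, and the difference was 0.25 with scaling to the 75th percentile.

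**Figure D3:**
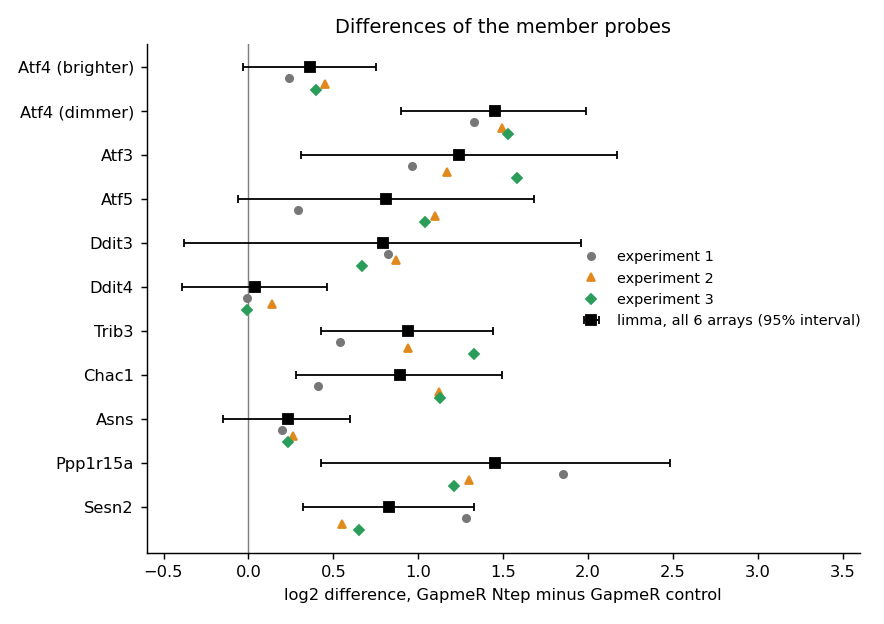
Log2 difference, GapmeR Ntep minus GapmeR control, of the 11 probes, from limma over all 6 arrays with its 95% interval (black squares) and in each of the 3 experiments (coloured symbols below). The interval is above 0 for 6 probes and includes it for the brighter Atf4 probe and those of Atf5, Ddit3, Ddit4 and Asns.

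Promoters of the genes were searched for the sequence that ATF4 and its C/EBP partners bind. The core TGATGNAA, which reads TTNCATCA on the other strand, was looked for on both strands between 250 bases before and 50 after each gene start of RefSeq in GRCm38.p6, a different build from that of the probes. It was found in 4 of the 10 genes, through 4 of their 11 promoters, and in 3.97% of all 32851 promoters. The full cAMP response element TGACGTCA was found in 1 of the 11 promoters, that of Ppp1r15a, and in 1.79% of all promoters. The genes were chosen as regulators or targets of ATF4 and CHOP. Their share with the core therefore goes with that choice and is no result of these arrays. The stretches are shown 5′ to 3′ on the strand of the gene, with the match in capitals.
Atf3, chr1:191183410-191183469, minus strand, match at −110 to −103: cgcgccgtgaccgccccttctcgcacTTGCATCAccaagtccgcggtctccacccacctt
Trib3, chr2:152344028-152344057, minus strand, match at 15 to 22: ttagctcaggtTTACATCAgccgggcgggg
Chac1, chr2:119351023-119351082, plus strand, match at −193 to −186: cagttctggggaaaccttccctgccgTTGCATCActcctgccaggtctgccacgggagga
Asns, chr6:7693210-7693269, minus strand, match at −23 to −16: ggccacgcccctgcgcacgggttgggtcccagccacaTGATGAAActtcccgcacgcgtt
Ppp1r15a, chr7:45526269-45526328, minus strand, match at −12 to −5: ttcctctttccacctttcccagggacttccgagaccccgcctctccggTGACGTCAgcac
The genes with the C/EBP-ATF core spanned a wide range of differences, from 0.23 for Asns to 1.24 for Atf3. Windows without a match, such as that of Sesn2 (0.83), lack only these letters.

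The genes around the 10 were read from 7 lists, counting a gene as called when any of its probes passed in the fit over all probes. Among all tested probes 2.09% were called higher and 3.21% lower, or 6.54% and 7.31% with the block. At an unadjusted p under 0.05 by limma, 12.5% were higher. These shares count probes, so a gene with several probes could be called more easily. When GapmeR Ntep replicate 3 or GapmeR control replicate 2 was left out, limma called 0 probes on the whole array (6116 and 5072 at an unadjusted p under 0.05), so each call in these lists was lost there. Among 13 genes of the eIF2 kinases, of eIF2 and of its control, 1 was called higher and 1 lower, with a median of −0.02. Eif2ak1, the haem-regulated kinase, rose from 1244 ± 85.3 to 2182 ± 82 (log2 0.81, SE 0.15, adjusted p = 0.043). Eif2ak2, the kinase PKR that senses double-stranded RNA and is itself induced by interferon, fell from 19871 ± 3190 to 6344 ± 1670 (log2 −1.67, SE 0.25, adjusted p = 0.0301). Of the brightest others, Eif2s1, which encodes eIF2α, differed by −0.68 (adjusted p = 0.0709), Eif2b2 by 0.34 and Gcn1l1 by −0.30. With the block by experiment 4 genes of this list were called higher and 2 lower, against 6.54% and 7.31% of all tested probes. The calls gained included the dimmer Eif2s1 probe (−0.90, limma adjusted p = 0.0487) and a dimmer probe of the kinase gene Eif2ak4 (1.33, 0.0395). Its brightest probe differed by −0.31 and its dimmest by 0.15. Eif2ak3, the remaining kinase gene, differed by 0.58 and was not called. These genes were picked out after their values had been seen.

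In the list of 28 tested other targets of ATF4, 24 had a positive difference of the brightest probe and 21 were higher in all 3 experiments, against 54.5% and 32.4% of all tested probes. The median was 0.52. Adm2, which encodes the hormone adrenomedullin 2, rose from 227.3 ± 70.1 to 1006 ± 258 (log2 2.16, SE 0.30, adjusted p = 0.0281). Cth, the enzyme that makes cysteine from cystathionine, rose by 1.35 (SE 0.26, adjusted p = 0.0458). Wars, the tryptophanyl-tRNA synthetase, was called higher by its dimmer probe (1.25, adjusted p = 0.0352), while its brightest one differed by 0.68 (0.141). These were the 3 genes called, and none was called lower. The brightest of the list were Gars (0.09), Nupr1 (0.55, adjusted p = 0.186) and a probe of the serine synthesis enzyme Psat1 (0.02). The dimmer Psat1 probe differed by 0.70 (limma adjusted p = 0.0726). With the block 8 genes were called higher, against 6.54% of all tested probes, and 1 lower. The lower one was Pycr1 (−1.13, adjusted p = 0.394 without the block and 0.0474 with it), picked out after its values had been seen.

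Of the 6 targets of CHOP, 5 were bright enough to be tested in both groups. All 5 were higher in all 3 experiments, as were 32.4% of all tested probes, and their median was 0.63. By limma with adjustment none of the 5 was called, while 2 of them were higher at an unadjusted p under 0.05, and 2 were called higher with the block. Among all tested probes 12.5% were higher at that unadjusted p and 6.54% were called higher with the block. Tnfrsf10b, the death receptor for TRAIL, differed by 0.97 (adjusted p = 0.0583, or 0.0413 with the block), Bbc3, the BH3-only protein PUMA, by 0.63 (0.0945) and Tsc22d3 by 0.60 (0.24). Whether CHOP or another factor set these differences was not tested. The remaining one, the carbonic anhydrase Car6, was tested only because it was bright with GapmeR Ntep, at 927.6, 323.7 and 527.5. With GapmeR control it was at 75.94, 49.55 and 21.52, well above background on 1 of the 3 arrays. Its call is therefore not counted here and no size is given.

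Chaperones and degradation factors induced by ATF6 and XBP1, the other arms of the response to misfolded protein in the endoplasmic reticulum, had a median of 0.05 over 17 genes, with 9 positive. The shares over all tested probes were 54.5% positive and 2.09% called higher. The 1 gene called higher, the co-chaperone Dnajb9, rose by both of its probes (1.58, adjusted p = 0.0243, and 2.32, adjusted p = 0.0287). The chaperones Hspa5 (0.20, adjusted p = 0.575) and Hsp90b1 (0.05) and the disulfide isomerase Pdia6 (−0.18) were the brightest others. The medians of the lists were not tested against each other.

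Of the bZIP partners and relatives, 14 were tested with a median of 0.23, and Jun was called, from 3550 ± 1090 to 13280 ± 3390 (log2 1.91, SE 0.30, adjusted p = 0.032). Cebpb, a partner of ATF4 and CHOP, differed by 0.37 (adjusted p = 0.452). The brightest probes of Atf2 and Atf1 differed by −0.02 and 0.04, but dimmer ones did not follow them. Those of Atf2 differed by 1.64, 1.32 and 0.41, with an adjusted p of 0.0665, 0.0919 and 0.41, and that of Atf1 by 0.78 (0.369). With the block Jun, Atf2 (0.0322 and 0.031 for the probes at 1.64 and 1.32) and Atf1 (0.0456 for the dimmer probe) made 3 genes called higher. Over all tested probes 6.54% were called higher with the block.

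The 7 tested paralogs of the genes had a median of −0.05. By limma with adjustment none was called. At an unadjusted p under 0.05 there was 1 higher, against 12.5% of all tested probes, and 0 lower. With the block 2 were called higher, against 6.54% of all tested probes. They were Ppp1r15b (above) and Trib1 (0.82, adjusted p = 0.0492, without the block 0.208), the latter picked out after its values had been seen. Of the brightest paralogs, Chac2 differed by 0.31, Sesn3 by −0.86 and Sesn1 by −0.36.

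The median of 15 immediate early genes, which answer to many stimuli and include Jun, was 0.99. That median was 1.18 without Egr3, which reached the signal needed for testing in 1 group only. Of the list 4 genes were called higher, against 2.09% of all tested probes. Besides Jun the genes called were Fosb (2.46, adjusted p = 0.0243), Egr1 (2.43, 0.0255) and Egr2 (1.79, 0.0467). Myc (0.22), Nr4a1 (0.57) and Klf2 (−2.13, adjusted p = 0.064) were the brightest others of that list. With the block 6 were called higher and 1 lower, against 6.54% and 7.31% of all tested probes. The lower one was Klf2 (0.0444). The genes gained were Fosl1 (2.66, 0.031) and Dusp1 (1.37, 0.031), picked out after their values had been seen.

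**Figure D4:**
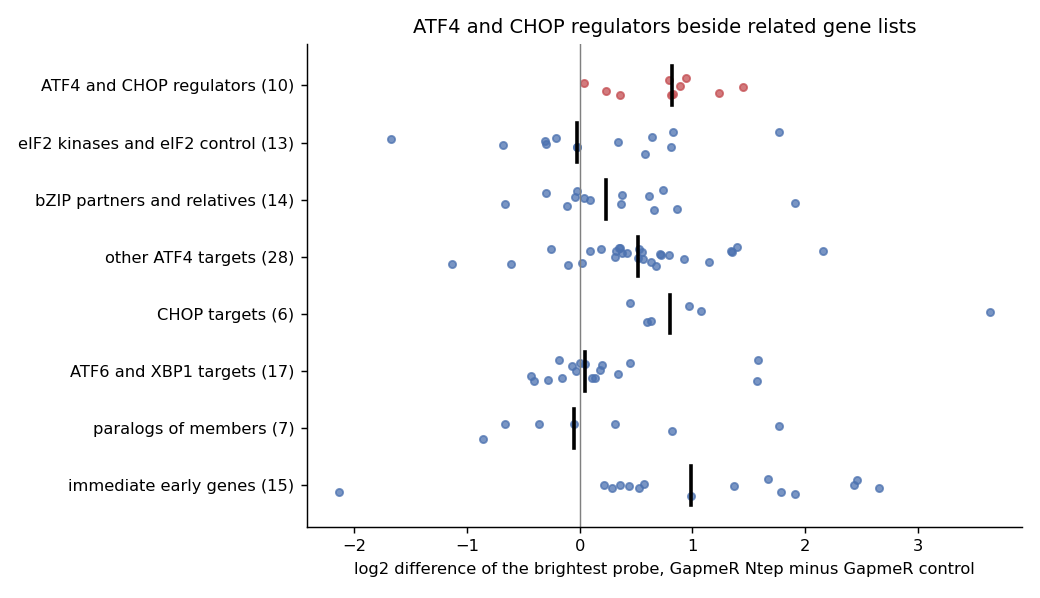
Log2 difference, GapmeR Ntep minus GapmeR control, of the brightest probe of each tested gene (points), for the 10 ATF4 and CHOP regulators (red) and 7 related lists (blue), with the number of genes in brackets and the median as a black bar. Medians were 0.82 for the regulators, 0.52 for other ATF4 targets and 0.05 for ATF6 and XBP1 targets. For CHOP targets the bar is at 0.80, but the median was 0.63 without Car6. Car6, the rightmost point, was tested only because of its signal with GapmeR Ntep and is not read.

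The 10 genes were summed into a profile, the mean of the standardized log2 values of their brightest probes. It was 0.85, 0.63 and 0.60 on the GapmeR Ntep arrays and −0.28, −0.92 and −0.88 on the control arrays, so control array 1 was nearest to the GapmeR Ntep arrays. Among 17727 tested probes of other named genes the profile was most like those of Kdm1a (Pearson r = 0.9995 over the 6 arrays), Ets1 (0.9991), Anapc16 (0.9984), Rhod (0.9982) and Rangap1 (0.9981). These were chosen from many candidates over few arrays that share 2 labels, and their log2 differences were 0.60, 0.54, 1.13, 1.18 and 0.76.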

How the data were processed

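The authors scanned the arrays with Agilent Feature Extraction 10.7.3.1 and deposited, per array, background-subtracted signal intensities on a linear scale, not normalized between arrays. They also deposited a quantile-normalized table with intensities under 20 set to 20. Lists of the authors' own fold changes and p-values were not used here. Here, the scanner intensities were averaged over the spots of a probe, quantile normalized and raised to 20 where they were lower. Their log2 values entered limma 3.58.1 in R 4.3.3 (unpaired, two-sided) for every probe that reached a mean of 50 in at least 1 group, with Benjamini-Hochberg adjustment over all of them. Motifs were counted with Python 3.11.15. The unpaired fit was tested on simulated data with planted changes and no experiment effect. The block, the probe pairs, the motif counts and the lists were not tested in this way.

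Replicate numbers follow the accessions and match the array numbers of the study's supplement, which pairs the arrays by experiment. Residuals of arrays with the same number correlated at 0.466, 0.300 and 0.254, and others at −0.327 to 0.126. A block by experiment was therefore fitted beside the unpaired one. All arrays were on 1 slide, per the supplement, so no slide effect could be fitted. The number of arrays, 3 per label, limits the precision.

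The 10 genes and the lists were chosen with earlier results of these data known. All probes of the 10 genes are named, from each list the genes called and up to 3 others with the highest signal, and 5 genes by likeness of profile. Other genes are said to be picked out where they are named.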

Additional observations from a re-analysis of the deposited data

How the results depend on the processing

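The number of the 11 probes called higher (1 in the unpaired fit) stayed at 1 with 75th percentile scaling, the authors' normalized table, a floor of 5, outlier spots left out and a variance estimated from all probes. It was 2 with normexp background correction, whose offset of 50 lets all 55681 probes pass the filter, 0 without a filter on dim probes and 3 with probes well above background on all arrays. The methods' t-test after adjustment gave 0, a variance that follows the signal 4, and leaving out 1 array 0 to 1. With the replicate block it was 4, with the block and a variance estimated from all probes 1, and with the block and a variance that follows the signal 9. Without both arrays of experiment 1 it was 0. Together with the added estimates of the variance, this omission was chosen after seeing the data. Over all tested probes the count of calls was 1642, against 4292 with the block, 564 without a filter, 285 with the t-test, 2707 with a variance that follows the signal, 865 without experiment 1, and 0 when GapmeR Ntep replicate 3 or GapmeR control replicate 2 was left out, so a lost call in those settings was not particular to the genes described. The count over all tested probes was 2323 of 55681 with normexp background correction and 2484 of 22647 with probes well above background on all arrays. With the block it was 1034 when all probes entered the variance and 7516 of 30990 when the variance followed the signal. Of 220 differences of single probes over 20 alternatives, 193 kept direction and call and 17 passed the threshold in addition. A further 8, all of the dimmer Atf4 probe, lost it. The other 2 were those of Ddit4, which turned to −0.06 when GapmeR Ntep replicate 2 was left out and to −0.02 when GapmeR control replicate 1 was (−0.06 to 0.11 over the 6 arrays left out in turn). Scaling to the 75th percentile moved the median of all probes from 0.06 to 0.22 and that of the 11 probes from 0.83 to 1.00, and it moved Asns from 0.23 to 0.47, the brighter Atf4 probe from 0.36 to 0.59 and Ddit4 from 0.04 to 0.25. Where not stated, the cause of a changed call was not tested.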
